A study of Drosophila melanogaster with 3 samples.

Results

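The genes for the replacement and variant histones of Drosophila melanogaster, together with the germline linker histone BigH1, were followed in dissected testis apical tips, in male thorax and in female thorax. The members were chosen by name: His2Av, His3.3A, His3.3B, His4r, cid and BigH1. Every probe of the array whose transcript name carries the locus tag of 1 of these genes was taken, which gave 9 probes of 6 genes among 32162 probes, of which probes for 13051 genes could be matched to the annotation. All 9 passed the filter on dim probes, which asked for a mean log2 signal of at least 7 in at least 1 tissue. BigH1 passed through testis apical tip alone, with means of 15.80 there, 3.84 in male and 6.52 in female thorax. Its place among the tested probes thus rests on the tissue in which it was high.

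All flies were wild type, of the OreR laboratory strain, with no transgene or treatment. The tissue of interest was the apical tip of testes of adult males, 2 to 4 days old per the labels. It was dissected with the surrounding sheath removed, so that hub and somatic cyst cells remain beside germline stem cells, spermatogonia and early spermatocytes. The tissues it was set against were the thorax of adult males and the thorax of adult females, without head, abdomen, legs and wings. The labels give no age for the thorax flies. For all dissections the study's methods name mated flies of a wider age range. Each tissue was measured on 4 arrays of 1 colour, which per the study's methods came from independent pools of RNA, so the p-values speak of the spread between pools of many flies.

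Most histones are made in S phase from a tandem cluster of intronless genes whose mRNAs end in a stem-loop and carry no poly(A) tail. The genes followed here lie outside that cluster and are transcribed throughout the cell cycle or in particular tissues. Their products replace the bulk histones in defined places: H2Av is the only H2A variant of the fly and carries the roles of H2A.Z and H2A.X, H3.3 is deposited outside replication at active genes and in the decondensing sperm nucleus, Cid is the H3 variant that marks centromeres, and BigH1 is a linker histone of the germline and early embryo. Male germ cells are known for replacing almost all of these histones with protamines at the end of spermiogenesis, long after the stages in the apical tip.

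The arrays were not alike in signal. Array 1 of testis apical tip stood apart, with a correlation of 0.809 to 0.812 with the other arrays of its tissue, while all other pairs within a tissue reached 0.942 to 0.996, and 56.4% of its probes were well above background against 63.5% to 73.7% on the other 11 arrays. The 75th percentile of the signal was 11738 to 14024 on the testis arrays and 1433 to 3352 on the thorax arrays, so each array was set to its own 75th percentile, and values are given below as log2 signal minus that percentile unless another scale is named. On this scale the median change over all 24878 probes tested was -1.05 for testis apical tip over male thorax and also -1.05 over female thorax. Without any scaling these medians were 1.29 and 1.60, and with quantile normalization -0.36 and -0.42. The slides held different tissues: slide A held arrays 1 and 2 of both thoraxes, slide B testis arrays 1 and 2 with male thorax 3 and 4, and slide C testis arrays 3 and 4 with female thorax 3 and 4.

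The labels were checked against marker genes. Of 14 germline markers with a probe, 13 were higher in testis apical tip than in male thorax and 13 were higher than in female thorax, and all 10 muscle markers were lower in both comparisons (9 of 10 without scaling). The log2 of the summed germline markers lay between 5.87 and 6.24 on the testis arrays, against 2.76 to 3.38 in male and 2.31 to 2.55 in female thorax, and that of the muscle markers between 0.52 and 2.15 in testis, against 8.47 to 9.21 in male and 8.47 to 9.72 in female thorax. The gene bam, which drives spermatogonia into differentiation, was above background on all 4 testis arrays and on no thorax array. Of 7 hub and cyst cell markers, 6 or 7 were above background on a testis array and 4 or 5 on a thorax array. Their log2 summed level was 1.01 to 1.34 in testis, against 2.11 to 2.44 in male and 1.81 to 2.28 in female thorax, and 2 of the 7 were higher and 2 lower in testis over male thorax. In such bulk samples fewer cells of a type and less RNA per cell cannot be told apart.

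**Figure D1:**
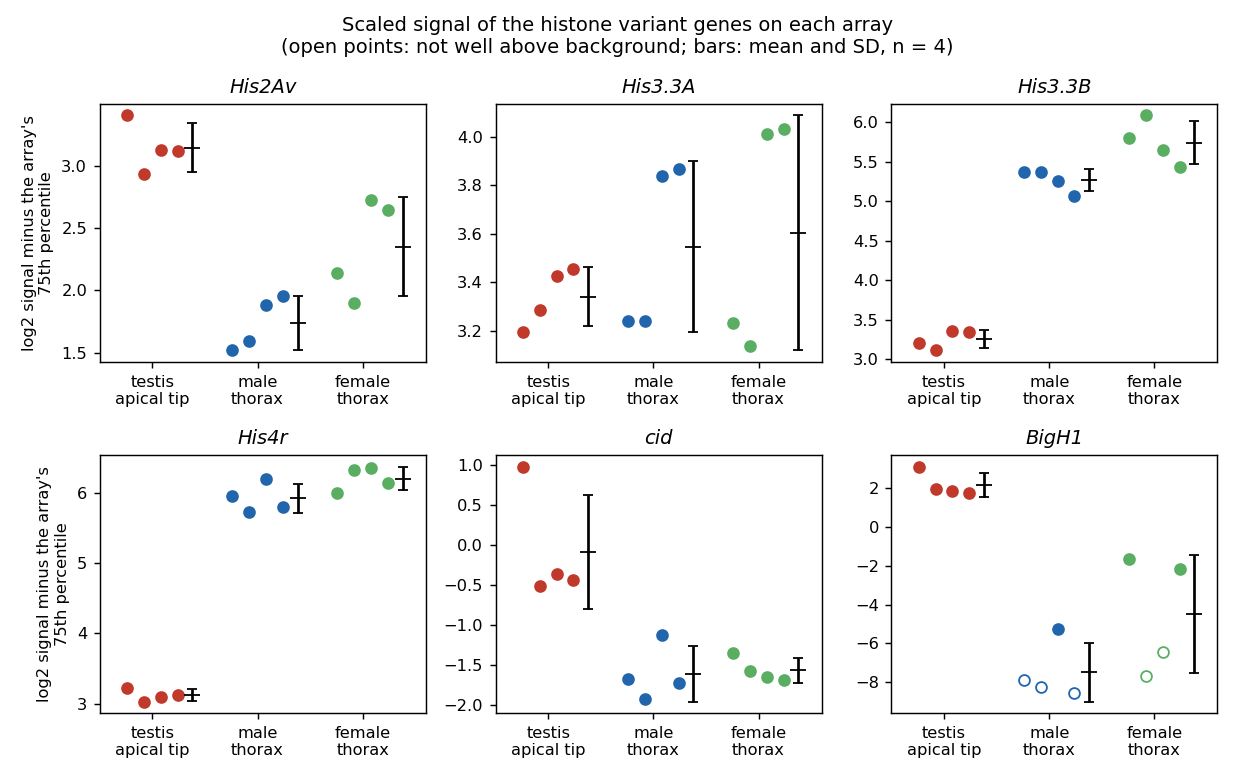
Log2 signal minus the array's 75th percentile (vertical axis, separate for each panel) of the 6 genes on the 4 arrays each of testis apical tip, male thorax and female thorax. Points are arrays in order of their number, open where the probe was not well above background, and bars are the mean and SD. His2Av, cid and BigH1 sit higher on every testis array than on any thorax array, His3.3B and His4r lower, and His3.3A overlaps, with the direction of His3.3B turned when arrays are not scaled.

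In testis apical tip against male thorax, His2Av, cid and BigH1 were higher, His3.3B and His4r were lower and His3.3A did not pass the test in limma at an adjusted p under 0.05. Without scaling the first 3 stayed higher, His3.3A was also higher, and neither His3.3B, whose sign turned, nor His4r passed. Over the 9 probes, 3 were higher and 3 lower. Over the array 29.3% of probes were higher and 47.2% lower in this comparison, so most probes were called and the number of member calls is not by itself a result about histone variants. Against female thorax the same 3 probes were higher and the same 3 lower, with 28.8% of all probes higher and 47.4% lower. Both comparisons used the same 4 testis arrays.

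BigH1, a linker histone found in the germline and the early embryo (CG3509, chromosome arm 3R, probe A_09_P075131), had the largest change among the 6 genes. Its scaled log2 signal was 3.07, 1.94, 1.82 and 1.70 on the testis arrays, against -7.88, -8.26, -5.25 and -8.54 in male thorax and -1.66, -7.69, -6.44 and -2.17 in female thorax. Every testis array lay above every thorax array, and the thorax arrays disagreed widely among themselves. The software called the probe well above background on all 4 testis arrays, on male thorax array 3 alone, and on female thorax arrays 1 and 4 alone.

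The fitted change of BigH1 was 9.62 ± 1.28 log2 units over male thorax (SE, limma adjusted p = 2.74e-05) and 6.63 ± 1.28 over female thorax (adjusted p = 0.000551), or 785 and 98.8 times as linear folds. Because 3 of the 4 male and 2 of the 4 female arrays gave only background for it, these folds rest on surrogate values that the software writes for dim spots, and their size is not well fixed. Without testis array 1 the changes were 9.30 (adjusted p = 0.000117) and 6.31 (adjusted p = 0.00185). With normexp background correction they were 6.94 over male thorax, or 123 times, and 4.43 over female thorax, or 21.6 times. The direction and the call held under each scaling and within each shared slide, where the change was 9.40 over male thorax and 6.07 over female thorax.

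The high BigH1 signal on female thorax arrays 1 and 4 came together with that of some other germline transcripts. On those arrays vas, an RNA helicase of the germline, stood at -2.23 and -2.39, against -7.31 and -6.55 on female arrays 2 and 3, and aub, a germline Piwi protein gene, stood at -4.41 and -4.32, against -6.26 and -5.82. For osk, whose mRNA is made in the female germline, the values were -0.16 and -0.77 on arrays 1 and 4, against -6.72 and -5.76 on arrays 2 and 3. Arrays 1 and 4 were the higher female arrays for these 3 genes, and osk was not above background on any testis or male thorax array. For aub, male thorax arrays 3 and 4 were also above background, at -3.98 and -5.28, array 3 above every female array. Some other genes of the male germline did not follow this split. Mst87F stood at -1.48, -1.82, -2.59 and -3.19 on female arrays 1 to 4, bol at 2.28, 2.31, 2.17 and 2.06, and bam was at background on all 4. The log2 summed level of the 14 germline markers lay between 2.31, on array 4, and 2.55, on array 1, but bol made up most of it. In male thorax bol read 2.55 to 3.12, against -1.24 to 2.64 in testis, so this sum says little about the split. The number of markers above background did follow it, with 7 and 9 on arrays 1 and 4, against 5 and 3 on arrays 2 and 3. Their mean levels were -4.52 and -4.69, against -5.26 and -5.20.

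The chorion gene Cp38, expressed in follicle cells of the ovary, was above background on 1 of the 8 thorax arrays, female array 1, at -4.79, and Cp15 on none of them. The genes osk, Cp15 and Cp38 were looked up after the BigH1 values were seen. Of 14 germline markers, 3 to 9 were above background on a female and 4 to 11 on a male thorax array. Whether germline RNA in the female thorax samples contributed to their BigH1 signal was not tested. With female thorax arrays 1 and 4 left out, an alternative chosen after the values were seen, the probe was at background on both remaining female arrays. Set against the dimmest probes of any gene called well above background there, BigH1 was 204-fold higher in testis than on arrays 2 and 3. That figure, over all 4 testis arrays, is no strict lower bound, since a probe can go uncalled above such a floor. On male thorax array 4, bam was not called at -3.43 while aub was called at -5.28. The figure also does not cover female thorax as a whole. On female arrays 1 and 4 the BigH1 probe was above background, at -1.66 and -2.17, and the fitted fold over all female arrays was 98.8.

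**Figure D2:**
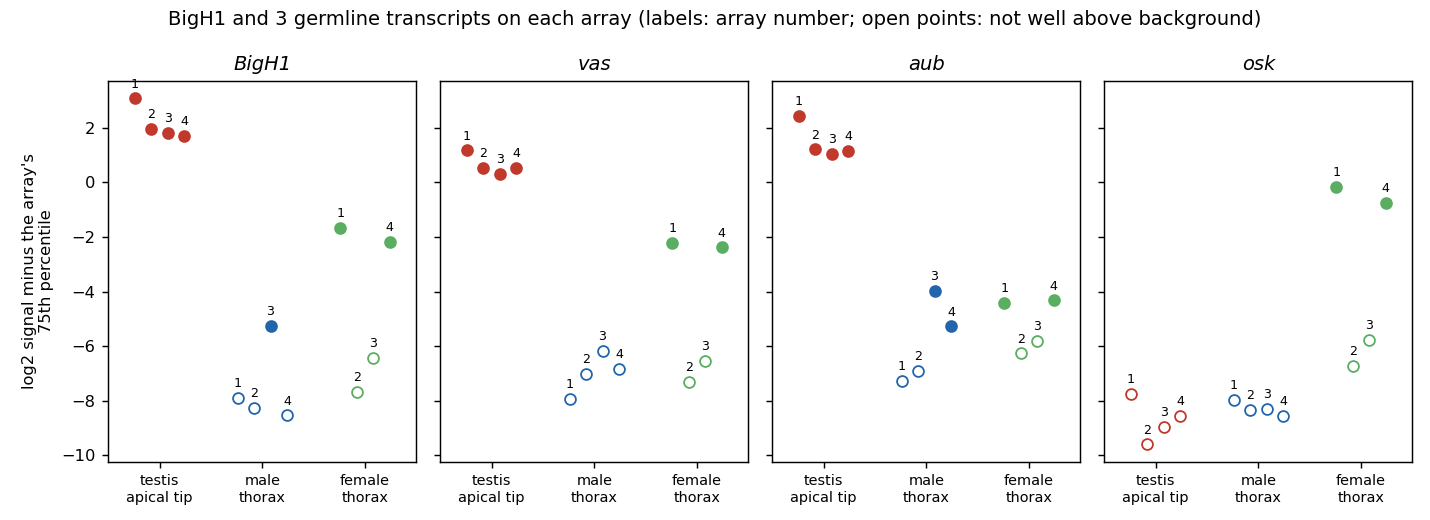
Log2 signal minus the array's 75th percentile (vertical axis) of BigH1, vas, aub and osk on each array, labelled by array number, open where not well above background. Female thorax arrays 1 and 4 lie above arrays 2 and 3 in each panel, with BigH1 at -1.66 and -2.17 against -7.69 and -6.44, and osk is high on those 2 arrays only.

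His2Av, the H2A variant with roles in transcription and DNA repair (CG5499, arm 3R, probe A_09_P042711), was higher in testis apical tip. Its values were 3.40, 2.93, 3.13 and 3.12 in testis, against 1.52, 1.60, 1.88 and 1.96 in male thorax and 2.14, 1.90, 2.72 and 2.64 in female thorax. The testis arrays lay above all thorax arrays, with the arrays of slide C closest to each other. The change was 1.41 ± 0.24 over male thorax (SE, limma adjusted p = 0.000234) and 0.79 ± 0.24 over female thorax (adjusted p = 0.0109).

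In both sexes the thorax values of His2Av were higher on the slides shared with testis than on slide A. With the 2 testis and 2 female arrays of slide C alone, the change over female thorax was 0.44 and no longer passed (adjusted p = 0.143), while over male thorax on slide B it was 1.25 (adjusted p = 0.00201). Without testis array 1 the changes were 1.32 and 0.71, both called.

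The other His2Av probe, A_09_P211360, rested on testis array 1. It read -8.67 there, near the floor of the array, and 2.01, 2.05 and 2.15 on testis arrays 2 to 4, against 0.11 to 0.51 in male and 0.73 to 0.85 in female thorax. Arrays 2 to 4 of testis were above all thorax arrays and array 1 was below all of them. The change was -0.89 ± 1.99 over male thorax with all arrays (adjusted p = 0.699) and 1.80 without testis array 1 (adjusted p = 1.99e-07), and over female thorax -1.40 with all arrays and 1.29 without testis array 1.

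The centromeric H3 variant cid (CG13329, arm 2R, probe A_09_P063021) was higher in testis apical tip. It read 0.98, -0.51, -0.36 and -0.44 in testis, against -1.67, -1.93, -1.12 and -1.72 in male thorax and -1.34, -1.57, -1.65 and -1.69 in female thorax. The lowest testis array was above the highest thorax array, and testis array 1 lay above the other 3. The change was 1.52 ± 0.34 over male thorax (SE, limma adjusted p = 0.0015) and 1.48 ± 0.34 over female thorax (adjusted p = 0.00186), and without testis array 1 it was 1.17 (adjusted p = 0.000171) and 1.12 (adjusted p = 0.000231).

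His3.3A and His3.3B encode the same H3.3 protein from different chromosomes, and they differed in how their signal changed. His3.3A (CG5825, arm 2L, probe A_09_P030381) read 3.19, 3.28, 3.43 and 3.46 in testis, against 3.24, 3.24, 3.84 and 3.87 in male thorax and 3.23, 3.14, 4.01 and 4.03 in female thorax. The tissues overlapped, and in both thoraxes the arrays of slide A were the lower ones. The change was -0.21 ± 0.28 over male thorax (SE, limma adjusted p = 0.518) and -0.26 ± 0.28 over female thorax (adjusted p = 0.406).

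The call for His3.3A depended on how slides and scales were handled. With slide as a block the change was -0.62 over male thorax (adjusted p = 0.00621) and -0.57 over female thorax (adjusted p = 0.00945), both called lower, and within the shared slides it was -0.61 (adjusted p = 0.0274) and -0.58 (adjusted p = 0.0338). Without scaling the sign turned, to 2.14 over male thorax (adjusted p = 0.00018) and 2.39 over female thorax, and with quantile normalization it was 0.78 (adjusted p = 0.0892) and 0.81 (adjusted p = 0.0809). Set against the median of all probes, His3.3A was 0.85 higher in testis over male thorax and 0.79 over female thorax. Its other probe, A_09_P194310, which names a different transcript of the gene, was at the floor on testis array 1 (-8.58) and at 3.15 to 3.38 on testis arrays 2 to 4, against 2.59 to 3.34 in male and 2.45 to 3.27 in female thorax, and without testis array 1 it changed by 0.42 (adjusted p = 0.135) over male thorax.

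His3.3B (CG8989, X chromosome, probe A_09_P149000) was lower in testis apical tip on the 75th percentile scale. It read 3.21, 3.11, 3.35 and 3.35 in testis, against 5.37, 5.37, 5.25 and 5.07 in male thorax and 5.80, 6.09, 5.65 and 5.43 in female thorax. Every testis array was below every thorax array, with little spread in any tissue. The change was -2.01 ± 0.20 over male thorax (SE, limma adjusted p = 2.5e-06) and -2.49 ± 0.20 over female thorax (adjusted p = 3.83e-07), with quantile normalization -0.80 and -0.94, and without scaling 0.33 (adjusted p = 0.329) and 0.16 (adjusted p = 0.632). Relative to the median of all probes it was 0.96 lower over male thorax and 1.44 lower over female thorax.

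A further probe for the same His3.3B transcript, A_09_P011071, gave a smaller change. It read 3.36, 3.23, 3.17 and 3.12 in testis, against 4.22, 4.33, 4.04 and 4.11 in male thorax and 4.70, 4.78, 4.33 and 4.09 in female thorax. The testis arrays were again below every thorax array. The change was -0.95 ± 0.21 over male thorax (SE, limma adjusted p = 0.00141) and -1.25 ± 0.21 over female thorax (adjusted p = 0.00019), but it was 0.018 over male thorax with quantile normalization. Without scaling the probe was called higher in testis, by 1.39 (adjusted p = 0.00138) over male and 1.40 (adjusted p = 0.0013) over female thorax. Relative to the median of all probes this probe was 0.10 higher over male and 0.20 lower over female thorax, so the 2 probes of His3.3B differ on whether the gene lay below the typical probe.

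His4r, a replacement gene outside the cluster that encodes an ordinary H4 (CG3379, arm 3R, probe A_09_P030001), showed the largest decrease of the 6 genes. It read 3.23, 3.03, 3.10 and 3.13 in testis, against 5.95, 5.73, 6.20 and 5.79 in male thorax and 6.0, 6.32, 6.35 and 6.14 in female thorax. Testis and thorax arrays did not overlap. The change was -2.80 ± 0.19 over male thorax (SE, limma adjusted p = 9.22e-08) and -3.08 ± 0.19 over female thorax (adjusted p = 4.15e-08), and with quantile normalization it was -1.65 and -1.57, both called. Without scaling the sign stayed but the call was lost, at -0.45 (adjusted p = 0.147) and -0.43 (adjusted p = 0.17). Relative to the median of all probes it was 1.74 lower over male and 2.03 lower over female thorax.

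**Figure D3:**
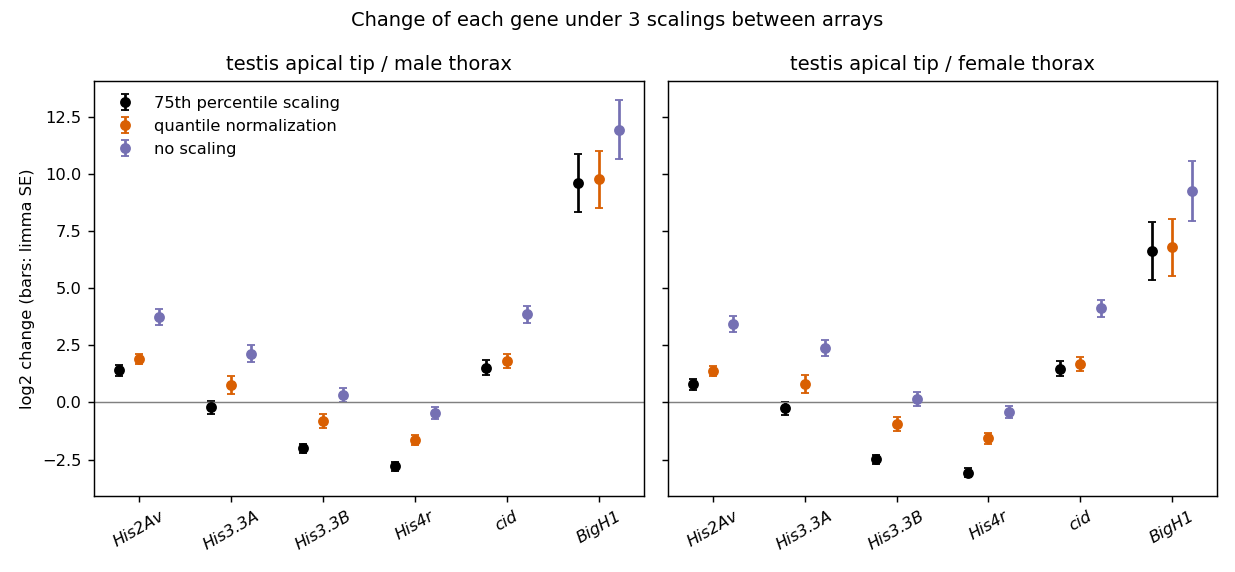
Fitted log2 change (vertical axis, bars are the limma SE) of the 6 genes in testis apical tip over male thorax, left, and over female thorax, right, with 75th percentile scaling, quantile normalization and no scaling. BigH1, cid and His2Av stay above 0 and His4r below 0 under all 3, while His3.3A and His3.3B cross 0 without scaling and His3.3A also with quantile normalization.

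Genes were also set against each other on the same array, where scaling between arrays drops out. For each of the 15 pairs of genes the log2 ratio of their probes was compared between tissues by an exact permutation test over 70 labellings of 4 against 4 arrays, two-sided, whose smallest possible p is 0.0286. In each of the 2 comparisons 14 of the 15 pairs reached that p (0.0306 after Benjamini-Hochberg over the 15 pairs). Most probes of the array were called in each of these comparisons, as given above, and the share of all probe pairs on the array that would separate in this way was not computed, so nothing particular to these genes is read from the count. His2Av over cid did not reach it, with a change of -0.12 over male thorax (exact permutation p = 0.771) and -0.68 over female thorax (exact permutation p = 0.2). Such a ratio shows unequal change of 2 probes and not which of them moved.

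The ratio of His3.3A to His3.3B averaged 0.08 ± 0.08 in testis and -1.72 ± 0.48 in male thorax (SD, n = 4 each), a difference of 1.80, and it averaged -2.14 ± 0.74 in female thorax, a difference of 2.22. No thorax array reached the testis range for this ratio. His3.3B over His4r differed by 0.79 between testis and male thorax and by 0.59 between testis and female thorax, with averages of 0.13 ± 0.13, -0.65 ± 0.25 and -0.46 ± 0.28 in testis, male and female thorax. When all probes of a gene were averaged, which brings in the 2 probes that were at the floor on testis array 1, the His3.3A to His3.3B difference shrank to 0.11 over male thorax (exact permutation p = 1) and 0.48 over female thorax (exact permutation p = 0.83). Averaging also cost 3 other pairs their call over male thorax, His2Av over His3.3B (exact permutation p = 0.143), His2Av over His4r (p = 0.143) and His3.3A over His4r (p = 0.457), and the same 3 over female thorax (p = 0.229, 0.143 and 0.314).

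Probes of the same gene also moved against each other, which bears on these ratios. The 2 probes of His3.3B differed by 0.04 ± 0.20 log2 units in testis, against 1.09 ± 0.11 in male thorax and 1.27 ± 0.11 in female thorax. For His3.3A the gap between its probes was 0.08 to 0.13 on testis arrays 2 to 4, against 0.53 to 0.96 in male and 0.69 to 0.90 in female thorax, and for His2Av it was 0.93 to 1.08 on testis arrays 2 to 4, against 1.41 to 1.61 in male and 1.17 to 1.96 in female thorax. On testis array 1 the gap was 11.77 for His3.3A and 12.07 for His2Av, so the smaller gap in testis held on all 4 arrays for His3.3B alone.

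The unscaled signals of His2Av, His3.3A, His3.3B and His4r in testis lay near the top of the scale, between 16.45 and 17.23 on the log2 scale, where the 99th percentile of an array was 17.08 to 17.48 and its brightest probe 18.09 to 18.64. In thorax His3.3B lay at 16.12 to 17.08 and His4r at 16.81 to 17.45, as near to the top as in testis, while His2Av and His3.3A lay at 12.39 to 15.26. No spot was marked as saturated. A narrowing of differences at high signal as a part of the changes of His3.3B, His4r and the pair ratios was not tested.

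**Figure D4:**
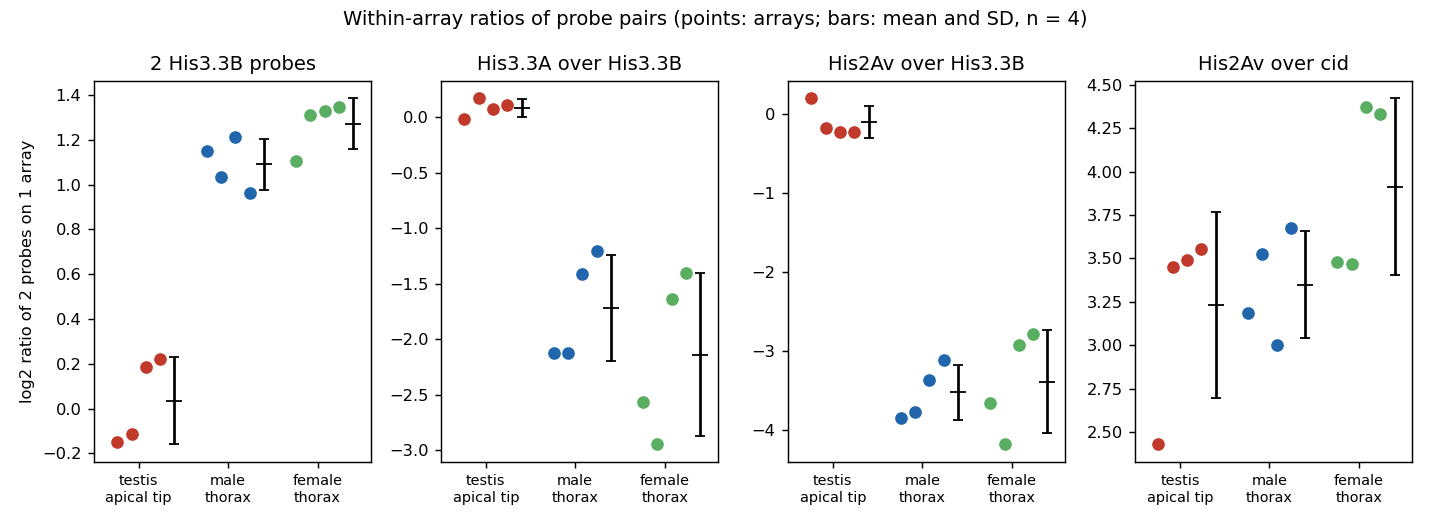
Log2 ratio of 2 probes on the same array (vertical axis, separate for each panel), with arrays as points and mean and SD as bars. The 2 probes of His3.3B differ by 0.04 on average in testis apical tip and by 1.09 and 1.27 in male and female thorax, and His3.3A over His3.3B and His2Av over His3.3B also separate testis from thorax, while His2Av over cid overlaps.

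Between male and female thorax none of the 9 probes passed the test, in a comparison where 0.153% of all probes were higher and 0.37% lower in males. The change was -0.61 ± 0.24 for His2Av (SE, limma adjusted p = 0.551), -0.48 ± 0.20 for His3.3B (adjusted p = 0.61), -0.28 ± 0.19 for His4r, -0.06 ± 0.28 for His3.3A and -0.05 ± 0.34 for cid. BigH1 changed by -2.99 ± 1.28 (adjusted p = 0.613), with 0.438% of tested probes at a lower change. Its probe was at background on 3 of the 4 male arrays and on female arrays 2 and 3, so no change is given without female arrays 1 and 4. On the linear scale His3.3B in males was 0.72 times its level in females by this probe and 0.81 times by its other probe. Without scaling these were 0.89 and 1.01 times, and none of these changes was called. These values do not show that the sexes are alike.

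The factors that put histone variants into chromatin were described through lists of genes, each by its brightest probe. Over the array 29.3% of probes were higher and 47.2% lower over male thorax, and 28.8% and 47.4% over female thorax. Whether the counts of a list differ from these shares was not tested. Of 9 genes for H3.3 and H3-H4 deposition, 4 were higher and 1 lower in testis apical tip over male thorax, with a median change of 0.52 where the median of all probes was -1.05, and 4 were higher and 1 lower over female thorax. Hira, the chaperone that deposits H3.3 outside replication, changed by 3.04 ± 0.24 over male thorax (SE, limma adjusted p = 3.24e-07), and yem, its partner in H3.3 deposition in the male pronucleus, by 3.87 ± 0.32 (adjusted p = 4.36e-07). The chaperone gene asf1 was lower, by -1.42 ± 0.25 (adjusted p = 0.000244), but its change was 0.92 without scaling. XNP, the fly ATRX protein, changed by 0.52 ± 0.38 and did not pass (adjusted p = 0.238).

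Hira and yem were thus higher in testis on the same scale on which His3.3B was lower and His3.3A did not pass. Without testis array 1 the list had 5 higher and 2 lower of 9. Without scaling it had 7 higher and none lower over male thorax, where 11980 of all 24878 probes were called higher.

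Of 4 genes of the centromere list, 3 were higher in testis over male thorax and 1 over female thorax. Cenp-C, a component of the inner kinetochore, changed by 5.01 ± 0.35 over male thorax (SE, limma adjusted p = 1.08e-07) and by 4.83 ± 0.35 over female thorax. The Cid assembly factor cal1 changed by -0.11 ± 0.38 over male thorax (adjusted p = 0.805), with -0.53 on testis array 1 and -2.30 to -2.41 on the other testis arrays, and without testis array 1 it was called lower, at -0.57. Without scaling cal1 was called higher, by 2.23 (adjusted p = 0.00053) over male and 2.09 (adjusted p = 0.000865) over female thorax. All 4 genes of the list were then higher in both comparisons, but the median change of all probes was also 1.29 and 1.60.

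Among 15 genes of the Domino and Tip60 complex, which exchanges and acetylates H2Av, 9 were higher and 1 lower over male thorax, with a median change of 1.16, and 8 were higher and 1 lower over female thorax. The genes that give the complex its name were not among those called on this scale. Without scaling 14 of the 15 were higher, where 11980 of all 24878 probes were called higher over male and 12816 over female thorax. The ATPase gene dom changed by 0.26 ± 0.35 over male thorax (SE, limma adjusted p = 0.514) and the acetyltransferase gene Tip60 by -0.30 ± 0.42 (adjusted p = 0.526). YL-1, a subunit that binds the H2A variant, changed by 0.96 ± 0.35 (adjusted p = 0.026) over male thorax and by 0.70 ± 0.35 (adjusted p = 0.0898) over female thorax. The AAA ATPase genes rept and pont had the highest changes of the list over male thorax, 4.02 and 3.69, and were chosen for mention after their values were seen.

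Of 6 genes for H2A-H2B chaperones and FACT, 4 were higher and 1 lower in testis over male thorax, and 4 higher and 2 lower over female thorax. Of all probes 29.3% were higher and 47.2% lower over male thorax, and 28.8% and 47.4% over female thorax. The testis gene mil, a relative of Nap1, changed by 7.32 ± 0.44 over male thorax (SE, limma adjusted p = 2.97e-08), and the general chaperone Nap1 by -0.57 ± 0.28 (adjusted p = 0.0847). Without scaling Nap1 was called higher, by 1.77 (adjusted p = 0.000654) over male and 1.76 (adjusted p = 0.000686) over female thorax. The list then had 5 higher and none lower, where the median change of all probes was 1.29 and 1.60. The mRNA processing list of the clustered histones had 3 higher and 2 lower of 6 over male thorax and 3 and 3 over female thorax. In it Slbp, whose protein binds the stem-loop of histone mRNAs, changed by 1.70 ± 0.37 over male thorax (adjusted p = 0.0013).

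The sperm chromatin list had 8 genes, of which 5 had a probe. All 5 were higher in testis over both thoraxes, where 29.3% and 28.8% of all probes were higher. Their median change was 9.18 over male and 9.57 over female thorax. The protamine genes Mst35Ba (annotated as ProtA) and Mst35Bb (ProtB) changed by 9.18 ± 1.29 and 9.41 ± 1.37 over male thorax, and Mst77F by 7.82 ± 0.88. Their mRNAs are known to be made in spermatocytes and stored until the sperm nucleus condenses. ProtA was above background on 2 of 4 male and 2 of 4 female thorax arrays, so its fold is set by dim spots as for BigH1.

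The replication-dependent histones were measured by 17 probes of 11 genes of the tandem cluster, whose copies are nearly identical, so a probe cannot be assigned to a single copy. Histone mRNAs of this cluster lack a poly(A) tail, and the labelling kit named in the labels amplifies from the poly(A) tail, so their levels are those of whatever RNA was primed. All 5 His2B probes were higher in testis over male thorax, by 3.85 to 6.30 log2 units, and both His2A probes, by 5.67 and 5.85. The other types did not follow on this scale: 1 of 5 His1 probes was higher, neither His3 probe was called, and of 3 His4 probes 2 were higher and 1 lower. Over female thorax all 5 His2B and both His2A probes were again higher, 1 of 5 His1 probes was lower, and of 3 His4 probes 1 was higher and 1 lower. For the dimmest of these, His2B:CG33872, the probe was above background on 2 of 4 male and on none of the female thorax arrays. Its fitted change of 7.17 over female thorax is therefore a difference from background. Set against the dimmest probes called well above background it was 115-fold higher in testis, which, as for BigH1, is no strict lower bound.

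Counted by gene, 7 of the 11 were higher and none lower over male thorax, where 29.3% of all probes were higher and 47.2% lower. Over female thorax 5 genes were higher and 1 lower, where 28.8% of all probes were higher and 47.4% lower. With testis array 1 left out, 6 genes were higher and 3 lower over female thorax. Without scaling 9 were higher over male thorax, along with 11980 of all 24878 probes, and 8 over female thorax, along with 12816. Without testis array 1 the calls of the other types changed. The His3 probe A_09_P060206 was then called higher, by 1.88 (limma adjusted p = 1.11e-05) over male and 1.77 (adjusted p = 1.87e-05) over female thorax. Of the 5 His1 probes 2 were then higher over male thorax and 4 lower over female thorax, and of the 3 His4 probes 2 were higher and 1 lower in both. Testis array 1 was the low array for several of these probes, with His2B:CG33872 at -3.51 and His2B:CG33868 at -2.72 there. The His2A probe A_09_P162660 also followed the split of the female thorax arrays seen for BigH1, with a mean of 1.23 on arrays 1 and 4, against -1.97 on arrays 2 and 3. So did the His4 probe A_09_P060196, with a mean of -3.41 on arrays 1 and 4, against -5.96 on arrays 2 and 3.

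**Figure D5:**
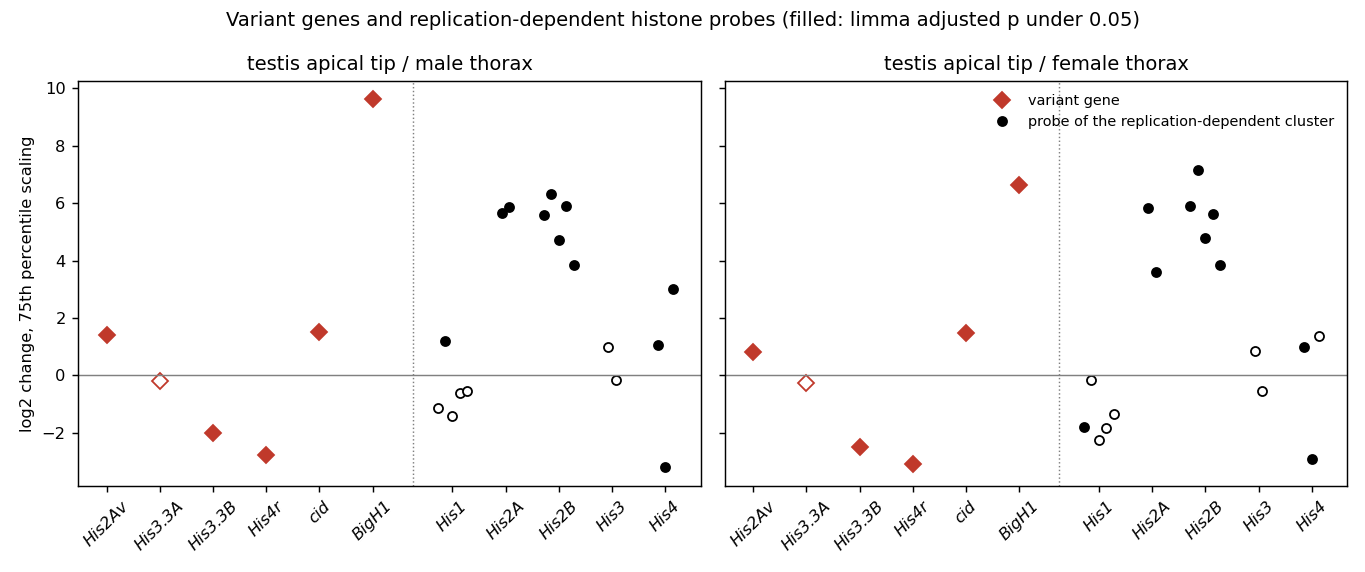
Fitted log2 change on the 75th percentile scale (vertical axis) in testis apical tip over male thorax, left, and over female thorax, right, for the 6 variant genes (diamonds) and the 17 probes of the replication-dependent cluster (circles), filled where the limma adjusted p is under 0.05. His2A and His2B probes lie between 3.61 and 7.17 in both panels, the highest being His2B:CG33872, which was at background on every female thorax array. Neither His3 probe is called with all arrays, though 1 was called higher without testis array 1, and His3.3B and His4r lie below 0 on this scale, His3.3B above 0 without scaling.

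For each gene the 2 genes with the most similar profile over the 12 arrays were found among 11925 candidates, by the root mean square distance between profiles after subtraction of each mean. His4r was closest to CG7920 (0.095 log2 units) and RpS28b (0.110), a ribosomal protein gene. His3.3B was closest to CG12206 (0.10) and Syt1 (0.131), the synaptotagmin gene of neurons, and His3.3A to Sumo (0.112) and Ipp (0.139). The nearest profiles of His2Av were Srp14 (0.116) and LeuRS (0.132), and those of cid were Uxt (0.169) and CG6005 (0.177). For BigH1 they were CG31517 (0.715) and BicC, a gene of the female germline (0.815). The distance is not scaled to the spread of a gene, which was 4.57 log2 units (SD over the 12 arrays) for BigH1 and 0.34 for His3.3A. The correlation with the nearest profiles was 0.988 and 0.992 for BigH1, 0.944 and 0.906 for His3.3A and 0.979 and 0.976 for cid, given as a description over arrays of 3 tissues.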

How the data were processed

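RNA of testis apical tip, male thorax and female thorax was labelled with Cy3 and hybridized to 4 Agilent arrays for each tissue. The deposited intensity values are the processed signals of Agilent's Feature Extraction software, background-subtracted per spot with a positive surrogate for dim spots and no scaling between arrays (version 9.1 per the submitters' processing notes). A further table from the authors gives 1 log2 value a tissue and served as an alternative only. The 12 arrays carry no replicate number, so numbers follow slide and position.

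Control spots and spots with outlier flags (112 to 389 per array) were left out, replicate spots were averaged, taken to log2 and set to the array's 75th percentile. Probes with a mean log2 signal of at least 7 in at least 1 tissue were tested with limma 3.58.1 (R 4.3.3) over all 12 arrays, with Benjamini-Hochberg adjustment over 24878 probes and calls at 0.05. Ratios of probes within an array were compared by exact permutation (scipy 1.17.1). The number of arrays limits the precision. Probes were named through locus tags of the array design (18121 probes), older tags (1235) or accessions (115) in a RefSeq annotation of a later release, from which only names and chromosome arms were taken; 12691 had no match. The gene nos could not be matched.

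The members, gene lists and tests were chosen with earlier results of these data known. All members were named, with 15 genes of the lists fixed by name and the 2 nearest profiles for each member; the brightest probe stood for a gene. The scripts were tested on simulated data. Alternatives covered scaling, background correction (normexp with offset 50 on the median spot signal), filters, array weights, slides, outlier spots and each array left out. Probe sequences and genome coordinates were not used here.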

Additional observations from a re-analysis of the deposited data

Results flagged for a closer look

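In 15 of 72 sets of 4 arrays a probe of a variant gene or of a named list gene had a value on 1 array whose gap to the nearest other array was above Dixon's 95% critical value as a share of the range of the set, which chance gives in about 1 in 20 sets. Of the 15, 13 were on testis apical tip array 1. That array read low for the other probes of His2Av (-8.67, against 2.01 to 2.15 on the other testis arrays) and His3.3A (-8.58, against 3.15 to 3.38). It read high for cid (0.98, against -0.51 to -0.36) and for the H3.3 deposition genes Hira (2.01), yem (2.47), asf1 (0.17) and XNP (1.84).

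It was also high for the centromere genes cal1 (-0.53, against -2.41 to -2.30) and Cenp-C (1.5), for the H2Av exchange genes dom (1.95), Tip60 (0.99) and YL-1 (2.15), and for Slbp (2.40). The nucleosome assembly gene mil was low on testis array 2 (3.95, against 4.07 to 4.08) and high on male thorax array 3 (-1.81, against -3.79 to -3.74), the male array on which BigH1 was above background.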

How the results depend on the processing

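Of 558 comparisons of a member probe with its value under an alternative, 477 counted as the same, 59 changed sign, and 22 moved otherwise. Counting as the same meant keeping the direction and the side of the threshold. The authors' values carry no p-value, so for them it meant a change within the SD of the first-named tissue's arrays. BigH1, cid and His2Av stayed higher in testis apical tip over male thorax under every alternative run. Without scaling, testis over male thorax gave 2.14 for His3.3A, 0.33 and 1.39 for the 2 His3.3B probes, -0.45 for His4r and 1.46 for the other His2Av probe, and testis over female thorax gave 2.39, 0.16, 1.40, -0.43 and 1.26, with 0.13 for the other His3.3A probe. The authors' table, which has no scaling, gave the same values for the brightest probes of His3.3A, His3.3B and His4r, and 3.75 and 3.45 for His2Av, 3.87 and 4.13 for cid, 8.04 for BigH1 over female thorax where the unscaled signals gave 9.28, 4.14 and 3.94 for the other His2Av probe and 2.77 and 3.09 for the other His3.3A probe. With quantile normalization His3.3A gave 0.78 and 0.81 and the other His3.3B probe 0.018 over male thorax.

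Array weights, which gave testis array 1 a weight of 0.017, turned His3.3A to 0.13 and 0.14, its other probe to 0.64 and 0.73 and the other His2Av probe to 1.88 and 1.30. With slide as a block His3.3A gave -0.62 and -0.57, and within the shared slides -0.61 and -0.58, with 0.44 for His2Av, 0.16 for the other His3.3A probe and 1.29 for the other His2Av probe over female thorax. Male over female thorax, where no member was called, changed sign for His3.3A (0.25 without scaling and in the authors' table, 0.025 quantile, 0.079 normexp, 0.010 weights, 0.047 slide block, 0.055 shared slide), cid (0.26 without scaling, 0.0011 without female thorax arrays 1 and 4), His4r (0.027 without scaling, 0.076 quantile), the other His3.3B probe (0.013 without scaling) and the other His2Av probe (1.27, slide block). With 1 array left out, the other His3.3A probe ranged from -3.56 to 0.42 over male and -3.54 to 0.44 over female thorax and the other His2Av probe from -1.81 to 1.80 and -2.32 to 1.29, with the positive values without testis array 1, while in male over female thorax His3.3A ranged from -0.21 to 0.084, cid from -0.21 to 0.061 and the other His3.3A probe from -0.14 to 0.16.

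The ratio of His2Av to cid ranged from -0.23 to 0.15 over male thorax with 1 array left out, and that of His3.3A to His3.3B was 0.11 and 0.48 with all probes averaged and 1.39 and 1.61 within the shared slides, where 2 arrays against 2 cannot give a p under 0.333. Of 300 alternatives for the ratios, 247 kept direction and side and 52 lost the threshold.

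Probes called higher and lower over male thorax were 11980 and 6097 without scaling, 3431 and 6532 among probes above background on all 12 arrays, and 7598 lower among matched probes only. Over female thorax they were 12816 and 5467, 3322 and 6612, and 7600. Between male and female thorax 38 higher and 92 lower became 126 and 168 with the 8 arrays of thorax alone, 2182 and 3082 with array weights, 20 and 51 above background on all arrays, 25 and 53 among matched probes, 13 and 46 within the shared slide, 15 and 40 without female thorax arrays 1 and 4, and 18 higher with normexp, with 25 to 44 higher when 1 array was left out. The cause of these shifts was not tested. The filtered and reduced sets also hold fewer probes or arrays. No paired analysis was possible because the labels give the arrays no replicate numbers. Signal over background limited BigH1 in thorax, where its probe was well above background on 3 of 8 arrays.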
